A study of Mus musculus with 24 samples.

Results

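The 9 genes described here belong to the JAK-STAT pathway and were measured in mouse bone marrow-derived macrophages (BMDMs): the type I IFN receptor chains Ifnar1 and Ifnar2, the kinases Jak1, Tyk2 and Jak2, and the transcription factors Stat2, Stat3, Stat5a and Stat6. They were chosen by symbol, with earlier results of these data known, and each had 1 row among the 24273 genes of the table. BMDMs are obtained by culturing bone marrow cells until they become macrophages. The libraries were labelled LysM-Cre, the control, or FosKO, both on a C57BL/6 background, and BMDMs were untreated (0 h) or stimulated with LPS at 100 ng/ml for 0.5, 1 or 2 h, with 3 libraries in each of 8 groups and 24 in all. LPS is a bacterial ligand of TLR4. In LysM-Cre mice the Cre recombinase is expressed from the lysozyme gene Lyz2, which is active in myeloid cells, so both genotypes carried Cre. FosKO cells came from Fos fl/fl LysM-Cre mice. For the controls the series gives LysM-Cre alone in its design and the study's text gives Fos fl/+ LysM-Cre, so the controls may have carried a floxed Fos allele too. The methods call the libraries biological replicates. Whether each came from a separate mouse is not given in the sources used here, nor is the age of the mice, and p-values measure the spread between these libraries.

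As background, type I IFN binds a receptor made of IFNAR1, to which TYK2 is attached, and IFNAR2, to which JAK1 is attached. The kinases phosphorylate STATs, among them STAT2, which acts with IRF9 to turn on IFN-stimulated genes through a DNA motif called the ISRE. JAK2 serves other receptors, such as those for IFN-γ and GM-CSF. Of the other STATs described here, STAT3 is used by IL-6 and IL-10, STAT5A by GM-CSF and STAT6 by IL-4, and several of them bind a motif called GAS. In macrophages LPS induces IFN-β, which then acts back on the cells through this receptor.

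Values are log2 normalised levels as deposited, so a difference of 1 is a doubling, and they are not per gene length. Within a group, any 2 libraries had r of 0.9946 or more across genes (genes are not independent replicates), and the typical SD of a gene, as the median over genes, was 0.057 to 0.083. The depth of each library is unknown here. Differences were tested with limma over 13901 genes and were called at a Benjamini-Hochberg adjusted p under 0.05. All 9 members passed the filter on low values.

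Several features of the libraries bear on the results. Fos, the targeted gene, measured 11.17, 11.07 and 11.10 at 0 h for LysM-Cre and 12.72, 12.41 and 12.67 for libraries labelled FosKO. The LysM-Cre mean went from 11.11 at 0 h to 13.52 at 0.5 h, 11.15 at 1 h and 9.52 at 2 h, whereas the other genotype had 12.60, 12.75, 12.78 and 12.80. Fos was thus higher, not lower, in libraries labelled FosKO at 0, 1 and 2 h, and lower at 0.5 h (12.75 against 13.52). Its course over time differed between the labels. With 1 value for the whole gene the deleted part cannot be read apart from the rest. The level of Fos therefore cannot show which libraries lack that part, and every direction given here rests on the labels. Rn18s-rs5, a gene of 18S ribosomal RNA, had values of 16.65 to 16.998 in 5 libraries (at 0.5 h the third LysM-Cre replicate and the first labelled FosKO, and at 1 h these again with the second LysM-Cre replicate), and of 18.57 to 19.39 in the other 19. Genotype differences of the members within each of these sets are given beside their results at those times, and the part of 18S in them was not tested. At 1 h the high set held 1 LysM-Cre library and 2 labelled FosKO, so each fit of the high set alone takes that lone library to vary like the other groups. The 7 macrophage markers lay between 9.07 and 15.38 (Csf1r, the receptor for M-CSF, at 14.95 to 15.28), and of these Mertk averaged 9.68 in LysM-Cre and 10.80 in libraries labelled FosKO, Fcgr1 12.48 and 13.20, and Cd68 15.10 and 15.29. The other 4 averaged lower in libraries labelled FosKO, with 14.91 and 14.82 for Adgre1, 15.17 and 15.10 for Csf1r, 14.44 and 14.27 for Itgam, and 14.67 and 14.64 for Cd14. The sum of all 7 on the linear scale was 143524 to 174373 in LysM-Cre and 140584 to 186723 in libraries labelled FosKO. Listed markers of T cells, B cells, NK cells, neutrophils, dendritic cells, erythroid cells and stroma, summed for each cell type apart, reached at most 122.3 in any library (dendritic cells). Of the neutrophil markers, Ly6g and Elane were at most -2.195 in any library, while S100a8 averaged 4.88 in LysM-Cre and 4.45 in libraries labelled FosKO, and S100a9 5.22 and 4.33. The neutrophil sum was 51.6 to 103.8 in LysM-Cre and 35.4 to 56.9 in libraries labelled FosKO, and the part of these markers in the results was not tested. In such bulk libraries fewer cells of a type and less RNA per cell cannot be told apart.

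Upstream sequences were matched for all 9 members in a RefSeq table of 250 bases before to 50 after each start (GRCm38.p6), with 10 windows because Stat5a had a pair of starts. Each window was searched on both strands for 4 motifs, written AP-1 TGANTCA, ISRE GAAANNGAA, GAS TTCNNNGAA and NF-kB GGGNNTTCC. Only Stat2, Ifnar1 and Ifnar2 held a match. They are printed 5′ to 3′ from 240 bases before to 10 after the start, with the match in capitals, because Stat2 had the largest genotype difference before LPS and Ifnar1 and Ifnar2 the receptor differences. Jak2 is shown as one of the pair of members that rose most with LPS, and its window held none of the motifs.
Stat2, chr10:128270258-128270507, + strand, ISRE on the opposite strand: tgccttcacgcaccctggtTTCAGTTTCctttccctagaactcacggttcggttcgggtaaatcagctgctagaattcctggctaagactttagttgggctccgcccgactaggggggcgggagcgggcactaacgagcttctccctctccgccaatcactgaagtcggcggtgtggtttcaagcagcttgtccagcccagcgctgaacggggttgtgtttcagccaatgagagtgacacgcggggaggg
Ifnar1, chr16:91484975-91485224, + strand, GAS: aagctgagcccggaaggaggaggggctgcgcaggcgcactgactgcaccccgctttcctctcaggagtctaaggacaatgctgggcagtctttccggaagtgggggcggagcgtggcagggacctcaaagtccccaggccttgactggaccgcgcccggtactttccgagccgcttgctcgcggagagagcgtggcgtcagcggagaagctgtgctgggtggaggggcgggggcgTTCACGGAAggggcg
Ifnar2, chr16:91372543-91372792, + strand, GAS: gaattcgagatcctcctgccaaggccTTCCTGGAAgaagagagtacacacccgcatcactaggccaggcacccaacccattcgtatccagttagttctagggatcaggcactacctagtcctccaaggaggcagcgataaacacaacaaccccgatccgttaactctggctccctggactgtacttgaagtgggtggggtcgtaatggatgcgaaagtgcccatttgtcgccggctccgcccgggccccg
Jak2, chr19:29251563-29251812, + strand, no match: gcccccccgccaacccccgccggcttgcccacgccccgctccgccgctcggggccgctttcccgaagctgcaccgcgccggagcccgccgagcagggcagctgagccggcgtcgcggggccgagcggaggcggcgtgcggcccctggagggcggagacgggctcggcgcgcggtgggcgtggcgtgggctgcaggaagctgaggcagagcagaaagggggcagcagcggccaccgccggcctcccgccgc
The Stat2 match TTCAGTTTC began 221 bases before the start. Those of Ifnar1 (TTCACGGAA) and Ifnar2 (TTCCTGGAA) began 5 and 214 bases before it. Among all 32851 windows of the table, 8.56% held the ISRE letters, 8.3% the GAS letters, 7.81% the AP-1 letters and 5.82% the NF-kB letters. A match is a description of the letters and not a binding site.

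On GRCm38 (GENCODE vM21) Ifnar1 lies at chr16:91485238-91507441 and Ifnar2 at chr16:91372783-91405589, both on the + strand. Jak1 lies at chr4:101152367-101265282 (-), Tyk2 at chr9:21104068-21131243 (-) and Jak2 at chr19:29251828-29313080 (+). Stat2 lies at chr10:128270559-128292849 (+) and Stat6 at chr10:127642986-127660957 (+). Stat3, at chr11:100885098-100939540 (-), and Stat5a, at chr11:100859351-100885169 (+), share 72 bases at their ends on opposite strands. Whether counting used strand is not stated, so reads from that stretch may be shared. So may those of Stat6 with Nab2, of Tyk2 with the antisense gene 1700084C06Rik, and of Jak1 with Raver2 and Gm24468. On their own strands Ifnar2 overlaps Gm21970 and Jak1 overlaps the pseudogene Gm12785. Stat5a has a near-identical copy, Stat5b, so the values of Ifnar2, Jak1 and Stat5a are less certain.

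Compared per length, that is, as the log2 level per kb of merged exon, the members differed widely in unstimulated LysM-Cre libraries. Merged exons take in every annotated transcript of a gene, from 3329 bases in Ifnar2 to 9527 in Stat3, so the order depends on this length. Not divided by it, Stat3 at 2 h in LysM-Cre (11.48) lay above Tyk2 (11.25). Stat6 stood at 10.32 ± 0.03 (SD, n = 3), followed by Stat2 at 9.76 ± 0.09, Jak1 at 9.63 ± 0.01, Ifnar1 at 9.60 ± 0.01 and Ifnar2 at 9.32 ± 0.02. Jak2 (8.20 ± 0.004) and Tyk2 (8.17 ± 0.09) were within their spread of each other, Stat3 was at 7.86 ± 0.05, and Stat5a was lowest at 6.23 ± 0.07. After 2 h of LPS Jak2 stood first at 10.66 ± 0.06 in LysM-Cre and 10.74 ± 0.05 in libraries labelled FosKO, in the latter within the spread of Stat2 (10.69 ± 0.09). Stat3 was then last in both, at 8.22 ± 0.04 and 8.78 ± 0.04, in libraries labelled FosKO within the spread of Tyk2 (8.84 ± 0.05). In unstimulated libraries labelled FosKO, Stat2 (10.69 ± 0.21) stood first and Stat6 (10.39 ± 0.01) next.

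**Figure D1:**
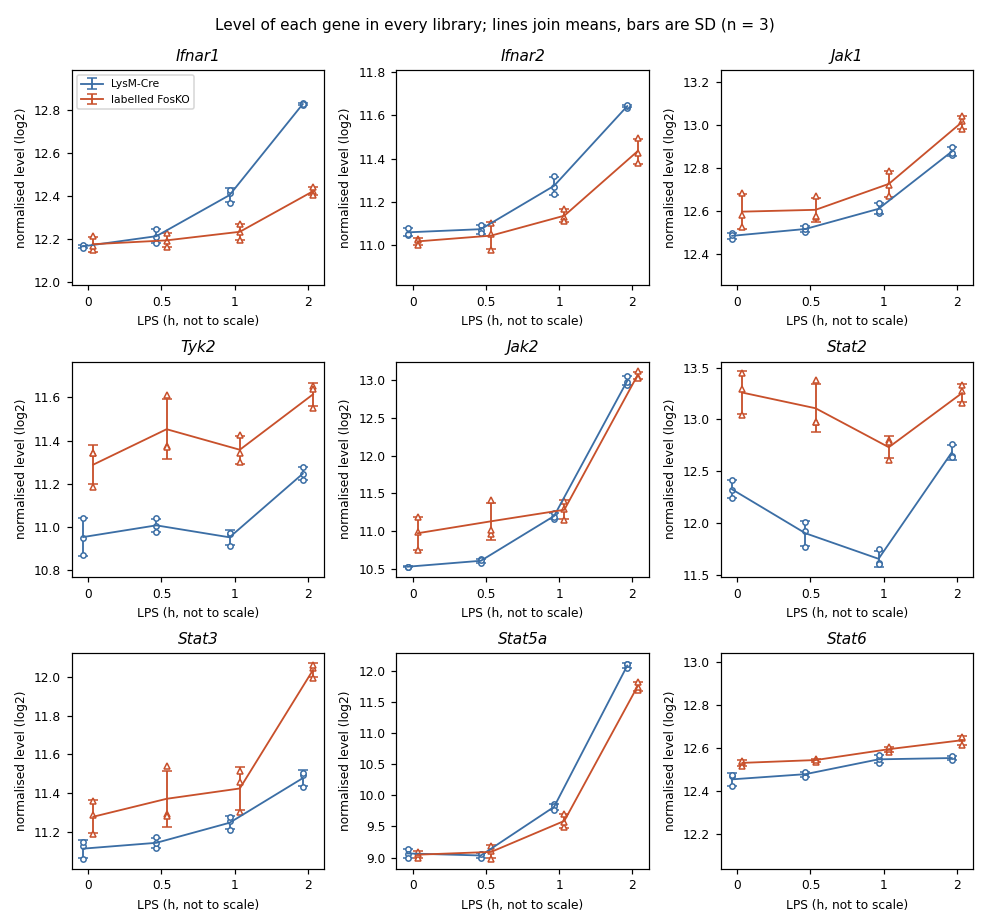
Normalised level (log2) of each member in every library against the time of LPS stimulation, with a separate vertical scale for each gene; circles are LysM-Cre and triangles libraries labelled FosKO, lines join group means and bars are SD (n = 3). Stat2 and Tyk2 libraries labelled FosKO lay above LysM-Cre at all 4 times, whereas Ifnar1, Ifnar2 and Stat5a libraries labelled FosKO lay below at 1 h and 2 h.

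The first question was whether the members differed between the genotypes at each time. Stat2, Tyk2, Stat3 and Jak1 were higher at every time in the libraries labelled FosKO, Jak2 was higher before LPS and at 0.5 h, and the receptor chains and Stat5a were lower from 1 h on. At 0 h, 6 of 9 members were higher and none lower, against 19.5% and 15.9% of all tested genes, and the median difference of the members was 0.11 against 0.00 for all. The same 6 members (Stat2, Jak2, Tyk2, Stat3, Jak1 and Stat6) were higher at 0.5 h, when 21.2% of all genes were higher and 19.7% lower. At 1 h, 4 were higher and 3 lower, with 18% and 15.9% of all genes. At 2 h, 5 were higher and 3 lower, with 24.4% and 20.26% of all genes, and the member medians at 0.5, 1 and 2 h were 0.09, 0.08 and 0.08. The share of members higher was above that of all genes at each time, but the members were chosen with earlier results of these data known. The differences of Jak1 and Stat6 were small and depended on scaling. After quantile normalisation, which forces every library to one distribution, no Jak1 difference was called and those of Stat6 turned below 0, and Stat3 at 0 h lost its call at 0.10 (adjusted p = 0.0992 in limma). On those values 3 members (Stat2, Jak2 and Tyk2) were higher and 2 (Ifnar1 and Ifnar2) lower at 0 h, with 16.4% and 19.8% of all genes, and 4 were higher and 2 lower at 0.5 h, with 19.0% and 22.7%. At 1 h, 3 were then higher and 3 lower (15.0% and 20.0% of genes). At 2 h, 3 were higher and 4, with Stat6 among them (adjusted p = 0.039 in limma), were lower (18.6% and 24.7%). The member medians were then 0.03, 0.06, 0.04 and -0.06 in order of time.

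**Figure D2:**
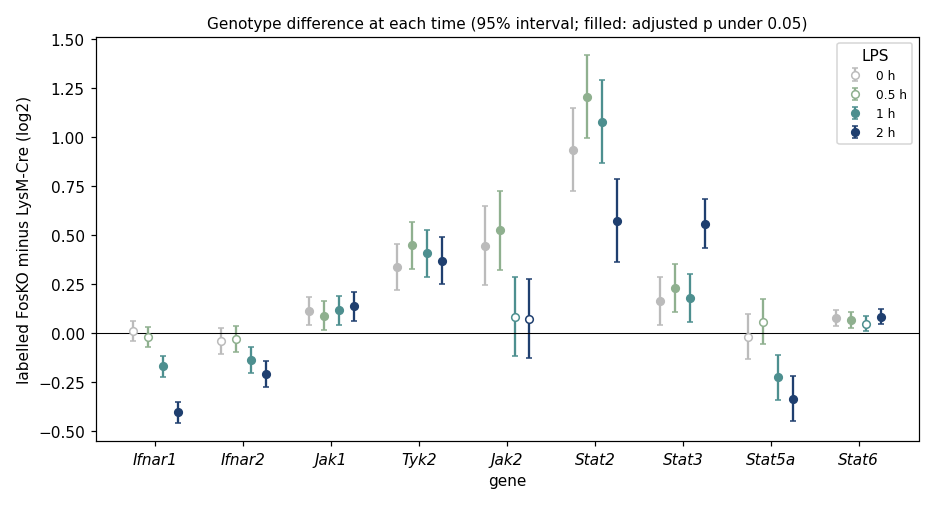
Difference between libraries labelled FosKO and LysM-Cre (log2, vertical axis) for each member at the 4 times, with 95% intervals from the limma fit; filled points had an adjusted p under 0.05. Stat2 reached 1.21 at 0.5 h and Ifnar1 fell to -0.40 at 2 h, and the small differences of Jak1 and Jak2 at 2 h, Ifnar1 at 0 h and Stat6 at all 4 times turn below 0 after quantile normalisation.

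The next question was how LPS changed the members in each genotype. At 0.5 h of LPS, 1 member (Stat2) was lower and none higher in LysM-Cre, where 5.09% of all genes were higher and 2.15% lower, and 1 member had an unadjusted p under 0.05. None was called in libraries labelled FosKO (4.45% of genes higher, 1.47% lower; 1 member, Tyk2, with an unadjusted p under 0.05). By 1 h, 6 members were higher and 1 lower in LysM-Cre (19.2% and 16.5% of genes), and 5 higher and 1 lower in libraries labelled FosKO (17.6% and 15.0%). By 2 h all 9 were higher in LysM-Cre, where 30.6% of genes were higher and 30.21% lower. In libraries labelled FosKO 8 were higher, with 32.6% and 29.5% of genes, the exception being Stat2. The median change of the members at 2 h was 0.39 in LysM-Cre, against -0.02 over all genes, and 0.42 in libraries labelled FosKO, against 0.00. Jak2 and Stat5a rose most in both genotypes. After quantile normalisation the counts at 1 h were 3 higher and 2 lower in LysM-Cre (14.7% and 24.5% of genes), and 1 higher, Stat5a, and 3 lower, Stat2, Ifnar1 and Stat6, in libraries labelled FosKO (12.7% and 23.2%). At 2 h they were 6 higher and 1 lower in LysM-Cre (24.2% and 36.3% of genes), the latter being Stat6 (-0.19). In libraries labelled FosKO 4 were then higher and 3 lower (23.8% and 36.9%), namely Stat6 (-0.24), Ifnar1 (-0.11) and Stat2 (-0.43). The member medians at 2 h were then 0.16 in LysM-Cre and 0.06 in libraries labelled FosKO.

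Last, the change with LPS was compared between the genotypes in the same fit. At 2 h, 1 member (Stat3) rose more in libraries labelled FosKO and 3 (Ifnar1, Ifnar2 and Stat5a) rose less, when 7.27% of all genes differed upward and 7.70% downward. At 1 h only Ifnar1 differed, downward (0.489% of genes upward, 0.727% downward). At 0.5 h none of the 9 was called by limma and none had an unadjusted p under 0.05 (0.0144% and 0.101% of genes called). After quantile normalisation 1 was upward and 5 downward at 2 h (5.75% and 8.65% of genes), with Jak2 and Stat2 added. The median member difference at 2 h was -0.17, against 0.02 for all genes.

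**Figure D3:**
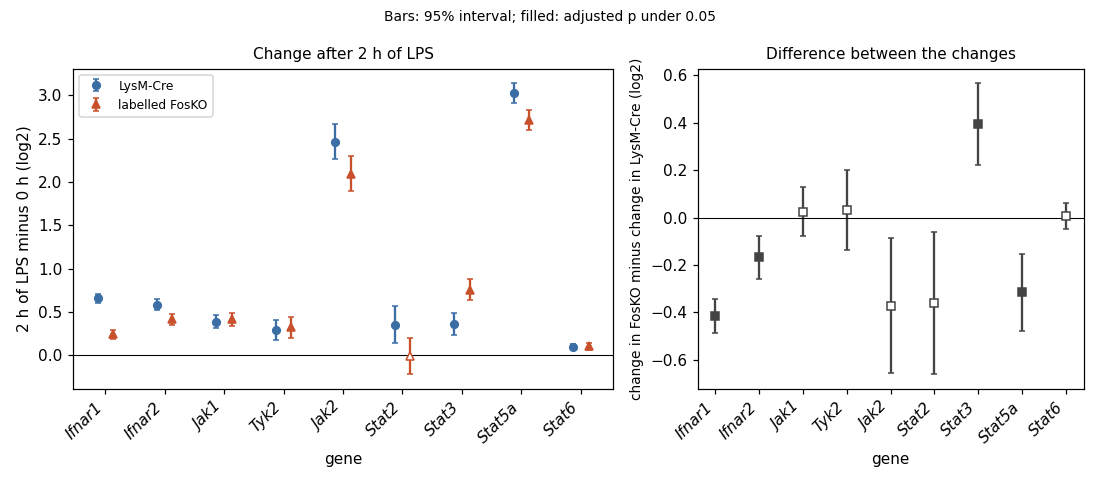
Left, change after 2 h of LPS (log2) in LysM-Cre (circles) and libraries labelled FosKO (triangles) for each member; right, the change in libraries labelled FosKO minus that in LysM-Cre; bars are 95% intervals and filled points had an adjusted p under 0.05. Ifnar1, Ifnar2 and Stat5a lay below 0 on the right (-0.41, -0.17 and -0.32) and Stat3 above it (0.39), and the rise of Ifnar1 in libraries labelled FosKO and of Stat6 in both turns below 0 after quantile normalisation.

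Ifnar1, the receptor chain that carries TYK2, had a genotype difference of 0.01 before LPS, which was not called (95% interval -0.04 to 0.06). At 0 h it stood at 12.17, 12.17 and 12.16 in LysM-Cre and at 12.15, 12.17 and 12.22 in libraries labelled FosKO. After 1 h of LPS it stood at 12.42, 12.43 and 12.37 against 12.20, 12.27 and 12.23. After 2 h it stood at 12.83, 12.82 and 12.83 against 12.42, 12.44 and 12.40. The groups overlapped at 0 h and 0.5 h and were apart at 1 h and 2 h, with every library labelled FosKO below every LysM-Cre library. The genotype difference was -0.17 (SE 0.02, adjusted p = 1.69e-05) at 1 h and -0.40 (SE 0.02, adjusted p = 8.97e-11) at 2 h, the latter a 1.32-fold lower level. In the high and low 18S sets taken alone it was -0.16 and -0.20 at 1 h. Ifnar1 rose 1.58-fold after 2 h of LPS in LysM-Cre and 1.19-fold in libraries labelled FosKO, that is, by 0.66 and 0.25 on the log2 scale. After quantile normalisation the former was 0.36 and the latter turned to -0.11 (adjusted p = 0.000241). The change in libraries labelled FosKO differed from that in LysM-Cre by -0.18 (95% interval -0.25 to -0.11) at 1 h and by -0.41 (-0.49 to -0.34, adjusted p = 7.09e-08) at 2 h. Without the low 18S libraries, which leaves 1 LysM-Cre library at 1 h, the value at 1 h was -0.17 and the call was lost (adjusted p = 0.176).

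Ifnar2, the chain that carries JAK1, was also lower in libraries labelled FosKO at 1 h and 2 h. Before LPS it stood at 11.05, 11.08 and 11.05 in LysM-Cre and at 11.03, 11.02 and 11.00 in libraries labelled FosKO, groups that were apart by a difference that was not called (-0.04, adjusted p = 0.328). After 1 h of LPS it stood at 11.23, 11.27 and 11.32 against 11.17, 11.13 and 11.11. After 2 h it stood at 11.64, 11.65 and 11.65 against 11.42, 11.38 and 11.50. Again every library labelled FosKO lay below every LysM-Cre library at 1 h and 2 h. The genotype difference was -0.14 (SE 0.03, adjusted p = 0.00152) at 1 h and -0.21 (SE 0.03, adjusted p = 1.3e-05) at 2 h. The values within the high and low 18S sets were -0.11 and -0.13 at 1 h, and with the high set alone, which has 1 LysM-Cre library, the difference was not called (adjusted p = 0.113). Ifnar2 rose 1.5-fold after 2 h of LPS in LysM-Cre and 1.34-fold in libraries labelled FosKO (0.59 and 0.42 on the log2 scale, and 0.37 and 0.18 after quantile normalisation), a difference between the changes of -0.17 (95% interval -0.26 to -0.08, adjusted p = 0.0124). At 1 h the changes differed by -0.10, which was not called (adjusted p = 0.601). In the quantile-normalised data the genotype differences of Ifnar1 and Ifnar2 were also called at 0 h, at -0.07 and -0.11, and at 0.5 h, at -0.10 and -0.09.

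Jak1, a kinase shared by many cytokine receptors, changed little. Its libraries ran from 12.47 to 12.50 in LysM-Cre and from 12.53 to 12.68 in those labelled FosKO at 0 h, and from 12.86 to 12.90 against 12.98 to 13.04 after 2 h of LPS. The groups were apart at each of the 4 times, by 0.11, 0.09, 0.12 and 0.14 in order of time (SE 0.04 each; adjusted p = 0.0171, 0.0498, 0.0146 and 0.00329), which after quantile normalisation became 0.031, 0.0084, 0.039 and -0.047 with no call. Split by 18S, high then low, it was 0.11 and 0.04 at 0.5 h, and 0.16 and 0.05 after 1 h of LPS. Leaving out replicate 3 of the libraries labelled FosKO also ended the call at 0, 0.5 and 1 h (0.069, 0.057 and 0.085), as did leaving out LysM-Cre replicate 1 (0.10, 0.081 and 0.11) and, at 0.5 h, LysM-Cre replicate 2 or 3 (0.090 and 0.096). Jak1 rose by 0.39 after 2 h of LPS in LysM-Cre and by 0.42 in libraries labelled FosKO, and the difference between the changes was 0.02 with a 95% interval of -0.08 to 0.13. On quantile-normalised values these rises were 0.11 (called) and 0.03 (not called), and the smaller rises of 0.13 at 1 h in both genotypes became -0.04. Of these, the rise at 1 h in libraries labelled FosKO also lost its call without replicate 1 at 0 h (0.094) or replicate 3 at 1 h (0.098).

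Tyk2, the kinase attached to IFNAR1, was higher in libraries labelled FosKO throughout. Its unstimulated values were 11.04, 10.95 and 10.87 in LysM-Cre and 11.19, 11.34 and 11.34 in libraries labelled FosKO. After 0.5 h of LPS it stood at 11.00, 10.98 and 11.04 against 11.38, 11.37 and 11.61. After 2 h it stood at 11.28, 11.22 and 11.24 against 11.55, 11.65 and 11.64. No LysM-Cre library reached a library labelled FosKO of its own time. The differences at 0, 0.5, 1 and 2 h were 0.34, 0.45, 0.41 and 0.37 (SE 0.06 each), a 1.26-fold to 1.36-fold higher level, with adjusted p from 9.38e-05 to 2.5e-06. The value at 2 h was 0.24 after quantile normalisation. In the high set of 18S libraries they were 0.50 at 0.5 h and 0.47 at 1 h, and in the low set 0.34 and 0.33. Tyk2 rose by 0.29 after 2 h of LPS in LysM-Cre and by 0.33 in libraries labelled FosKO, and neither rise was called after quantile normalisation (0.10 and 0.06). In libraries labelled FosKO replicate numbers paired the 0 h and 0.5 h libraries, and with the number as a block Tyk2 was called at 0.5 h (0.16, adjusted p = 0.0466, against 0.102 without it).

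Jak2, a kinase of the IFN-γ and GM-CSF receptors, rose strongly with LPS. At 0 h it stood at 10.53, 10.53 and 10.52 in LysM-Cre and at 10.75, 10.98 and 11.18 in libraries labelled FosKO. After 1 h it stood at 11.17, 11.25 and 11.19 against 11.15, 11.30 and 11.40. After 2 h it stood at 12.94, 12.98 and 13.06 against 13.05, 13.03 and 13.12. The libraries labelled FosKO were all higher at 0 h and 0.5 h, spread more widely than LysM-Cre, and overlapped with LysM-Cre at 1 h and 2 h. The genotype difference was 0.44 (SE 0.10, adjusted p = 0.00103) at 0 h and 0.52 (SE 0.10, adjusted p = 0.000165) at 0.5 h, within the 18S sets 0.62 and 0.34 at 0.5 h. At 1 h and 2 h it was 0.08 and 0.07, with 95% intervals of -0.12 to 0.28 and -0.13 to 0.27, and the latter became -0.087 after quantile normalisation. At 1 h the high 18S set gave 0.18 and the low set -0.06. Jak2 rose by 0.67 after 1 h of LPS in LysM-Cre and by 0.31 in libraries labelled FosKO, where the call was lost after quantile normalisation (0.21) and without replicate 1 at 0 h (0.20) or replicate 3 at 1 h (0.25). It rose 5.53-fold after 2 h of LPS in LysM-Cre and 4.27-fold in libraries labelled FosKO. The difference between the changes, -0.37 (95% interval -0.66 to -0.09), was not called (adjusted p = 0.0735 in limma). It was called after quantile normalisation (-0.49, adjusted p = 0.00827) and without replicate 1 of the unstimulated libraries labelled FosKO (-0.48, adjusted p = 0.013). A fit of the 4 groups alone (adjusted p = 0.0407) and one with the replicate number as a block within each genotype also called it.

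Stat2, the STAT particular to type I and type III IFN signalling, had the largest genotype difference of the 9 members at 0, 0.5 and 1 h. At 0 h it stood at 12.41, 12.32 and 12.24 in LysM-Cre and at 13.04, 13.29 and 13.44 in libraries labelled FosKO. After 0.5 h of LPS it stood at 12.01, 11.77 and 11.93 against 12.97, 12.97 and 13.38. After 1 h it stood at 11.61, 11.60 and 11.75 against 12.61, 12.81 and 12.78. At each time the groups were apart, and both sets of libraries were lower at 1 h than at 0 h. After 2 h Stat2 stood at 12.65, 12.64 and 12.76 against 13.16, 13.27 and 13.33. The difference was 0.93, 1.21, 1.08 and 0.57 at 0, 0.5, 1 and 2 h (SE 0.10 each, adjusted p = 4.85e-07, 1.17e-08, 7.02e-08 and 9.84e-05), so the level was 1.49-fold to 2.31-fold higher in libraries labelled FosKO. It was 1.29 in the high and 1.05 in the low 18S set at 0.5 h, and 1.18 and 0.93 at 1 h. In LysM-Cre Stat2 fell by 0.42 at 0.5 h of LPS and by 0.67 at 1 h, and was 0.36 above its level at 0 h after 2 h. The fall at 0.5 h lost its call without LysM-Cre replicate 1 at 0 h (-0.38, adjusted p = 0.064) or replicate 2 at 0.5 h (-0.36, adjusted p = 0.0776), and the rise at 2 h lost it after quantile normalisation (0.07). In libraries labelled FosKO Stat2 fell by 0.53 at 1 h and was back at 0.00 after 2 h (95% interval -0.22 to 0.21). After quantile normalisation its change at 2 h there was -0.43 and was called (adjusted p = 0.000525 in limma). The difference between the changes at 2 h, -0.36 (95% interval -0.66 to -0.06), was not called (adjusted p = 0.103 in limma). It was called after quantile normalisation (-0.49, adjusted p = 0.0158) and without replicate 1 of the unstimulated libraries labelled FosKO (-0.47, adjusted p = 0.024). A fit with the replicate number as a block within each genotype also called it.

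Stat3, the STAT of IL-6 and IL-10 signalling, parted most between the genotypes after 2 h of LPS. At 0 h it stood at 11.13, 11.15 and 11.06 in LysM-Cre and at 11.19, 11.28 and 11.36 in libraries labelled FosKO. After 2 h it stood at 11.43, 11.50 and 11.51 against 12.00, 12.05 and 12.06. Libraries labelled FosKO were higher at each time, and by far the most at 2 h. The genotype difference was 0.16, 0.23 and 0.18 at 0, 0.5 and 1 h (SE 0.06 each) and 0.56 (SE 0.06, adjusted p = 1.73e-07) at 2 h. Without replicate 3 labelled FosKO the value at 0.5 h was 0.14 and was still called. The values at 0 h and 1 h (adjusted p = 0.034 and 0.0241) lost their call without replicate 2 or 3 of the libraries labelled FosKO at either time, without LysM-Cre replicate 1 or 3 at 0 h, and without LysM-Cre replicate 1 or 2 at 1 h, and were then 0.12 to 0.17 at 0 h, and 0.13 to 0.18 at 1 h. By 18S set, high then low, it was 0.26 and 0.15 at 0.5 h, and 0.28 and 0.03 after 1 h of LPS. Stat3 rose 1.29-fold after 2 h of LPS in LysM-Cre and 1.69-fold in libraries labelled FosKO (0.36 and 0.76 on the log2 scale, and 0.16 and 0.47 after quantile normalisation), and the change was greater in the latter by 0.39 (95% interval 0.22 to 0.57, adjusted p = 0.00243).

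Stat5a, a STAT of GM-CSF signalling, was the most induced of the 9 members. Unstimulated, it stood at 9.14, 9.06 and 8.999 in LysM-Cre and at 8.99, 9.06 and 9.09 in libraries labelled FosKO. After 1 h of LPS it stood at 9.86, 9.83 and 9.76 against 9.49, 9.57 and 9.71. After 2 h it stood at 12.05, 12.11 and 12.12 against 11.70, 11.74 and 11.83. The groups overlapped before LPS and at 0.5 h, and the libraries labelled FosKO were all lower at 1 h and 2 h. The genotype difference was -0.23 (SE 0.06, adjusted p = 0.003) at 1 h, within the high and low 18S sets -0.22 and -0.30, and -0.33 (SE 0.06, adjusted p = 4.31e-05) at 2 h. With the high 18S set alone, again 1 LysM-Cre library, the value at 1 h was not called (adjusted p = 0.0727). After 2 h of LPS Stat5a rose 8.14-fold in LysM-Cre and 6.54-fold in libraries labelled FosKO, a difference between the changes of -0.32 (95% interval -0.48 to -0.15, adjusted p = 0.00832). Its near-identical copy Stat5b rose far less at 2 h, by 0.66 and 0.56.

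Stat6, the STAT of IL-4 signalling, was the steadiest member, with group means that spanned 0.18 over the 8 groups. Its libraries ran from 12.42 to 12.47 in LysM-Cre and from 12.52 to 12.54 in those labelled FosKO at 0 h, and from 12.54 to 12.56 against 12.61 to 12.65 after 2 h of LPS. The genotype differences were 0.08, 0.07, 0.05 and 0.08 in order of time, the third not called (adjusted p = 0.058), and after quantile normalisation they were -0.0057, -0.010, -0.026 and -0.060. Split by 18S, high then low, they were 0.07 and 0.06 at 0.5 h, and 0.07 and 0.03 after 1 h of LPS. The rises with LPS of 0.10 in LysM-Cre and 0.11 in libraries labelled FosKO at 2 h likewise turned to -0.19 and -0.24 under that scaling, and those at 1 h (0.09 and 0.06) to -0.08 and -0.10.

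**Figure D4:**
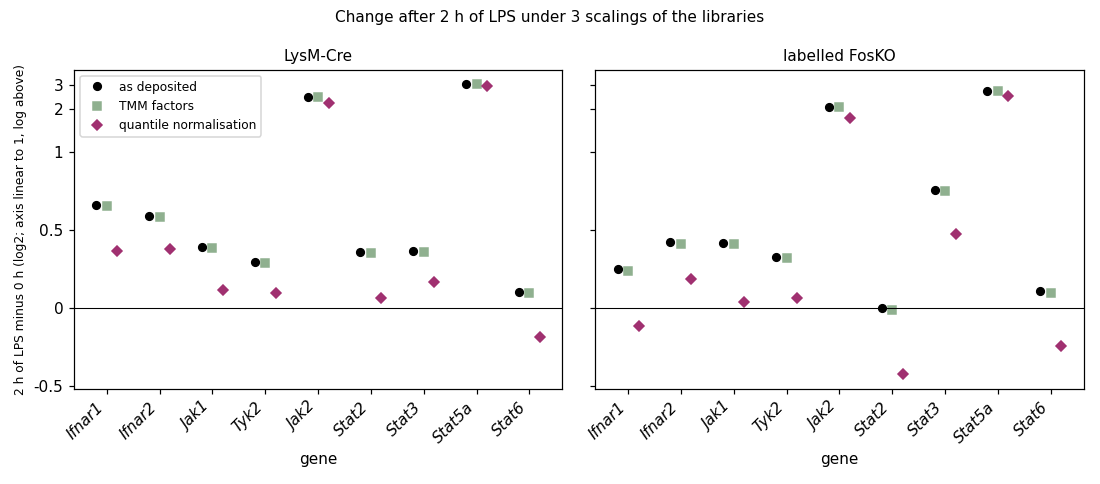
Change after 2 h of LPS (log2; the axis is linear up to 1 and logarithmic above) in LysM-Cre (left) and in libraries labelled FosKO (right), on the values as deposited (circles), after TMM scaling factors (squares) and after quantile normalisation (diamonds). Jak2 and Stat5a stayed high under each, while Stat6 turned from 0.10 to -0.19 in LysM-Cre and Ifnar1 from 0.25 to -0.11 in libraries labelled FosKO after quantile normalisation.

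The other genes of the pathway were taken as 44 listed genes, of which 42 passed the filter. At 0 h, 22 of 42 were higher and 6 lower in libraries labelled FosKO, and at 0.5, 1 and 2 h these counts were 21 and 7, 16 and 8, and 24 and 8, with median differences of 0.12, 0.13, 0.09 and 0.16. Of all tested genes 19.5%, 21.2%, 18% and 24.4% were higher and 15.9%, 19.7%, 15.9% and 20.26% lower, so the shares that were lower lay near those of all genes. After quantile normalisation the counts were 19 and 8, 19 and 8, 15 and 11, and 19 and 11, with 16.4%, 19.0%, 15.0% and 18.6% of all genes higher and 19.8%, 22.7%, 20.0% and 24.7% lower. Irf9, which acts with STAT2, was higher by 0.24, 0.26, 0.28 and 0.23 in order of time (SE 0.03 each, adjusted p of 9.16e-06 or less), the last of which was 0.13 after quantile normalisation. Of other STATs and JAKs, Stat4 and Jak3 were called higher at 2 h (0.45 and 0.14). The call of Stat4 was lost without LysM-Cre replicate 2 (0.27, adjusted p = 0.172) or replicate 1 labelled FosKO (0.33, adjusted p = 0.122), and that of Jak3 without either of these (0.097 and 0.12) or replicate 2 labelled FosKO (0.13). At 0, 0.5 and 1 h Jak3 was not called, and it was called under some alternatives, such as quantile normalisation at 0 h and 0.5 h. Stat5b was called at 0 h (0.11, adjusted p = 0.0386) but not after quantile normalisation (0.060), nor without LysM-Cre replicate 1 or 3 or replicate 1 or 2 labelled FosKO (0.089 to 0.105). Of the IFN-γ receptor chains, Ifngr1 was lower at 0, 0.5 and 1 h (-0.18, -0.16 and -0.12), while Ifngr2 was higher at 0 h and 0.5 h (0.20 each) and lower at 2 h (-0.23). The value of Ifngr1 at 1 h was not called with the high 18S libraries alone, with 1 LysM-Cre library (-0.055), nor without replicate 3 of LysM-Cre (-0.083) or of those labelled FosKO (-0.10). After quantile normalisation Ifngr1 at 1 h was -0.20 and Ifngr2 at 0 h 0.13. Ifngr1 at 2 h, not called on the deposited values (-0.055), was then called at -0.21 (adjusted p = 0.000253 in limma).

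Among cytokine receptor chains 9 of 17 were higher and 4 lower at 0 h, with 19.5% and 15.9% of all tested genes, and 8 and 5 at 2 h, with 24.4% and 20.26%. Among the larger differences upward were those of Il12rb1, a chain of the IL-12 and IL-23 receptors (1.14, 1.60, 1.19 and 1.27 in order of time), Csf3r, the G-CSF receptor (1.1, 1.28, 1.01 and 0.99), and Il21r (from 0.97 at 0 h to 1.39 at 2 h). Lifr, the LIF receptor, was lower at each time (-0.84, -1.01, -0.72 and -0.55), as was Il27ra (-0.69, -0.52, -0.43 and -0.64). Il12rb1 and Il27ra had low levels, at 0 h 3.93 and 5.64 in LysM-Cre and 5.06 and 4.95 in libraries labelled FosKO. Csf3r stood at 9.21 and 10.31 in these groups. Among 18 inhibitors 9 were higher and 1 lower at 0 h and 12 and 2 at 2 h, against the same shares of all genes. Usp18, which binds IFNAR2 and damps its signalling, was higher at each time (1.08 at 1 h, adjusted p = 3.42e-06), and Cish, a SOCS family member, was higher at 0 h (0.31, adjusted p = 0.0405) and lower at 1 h (-0.60).

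**Figure D5:**
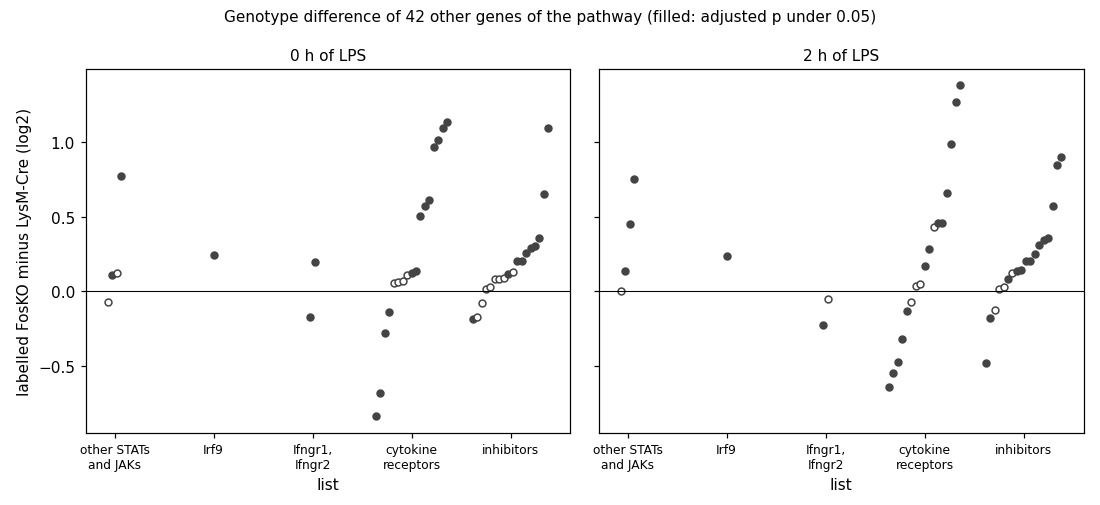
Difference between libraries labelled FosKO and LysM-Cre (log2) at 0 h (left) and 2 h (right) for 42 other genes of the pathway, in 5 lists, each point a gene and filled where the adjusted p was under 0.05. At 2 h 24 were higher and 8 lower.

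With LPS, 4 of these 42 genes rose at 0.5 h in each genotype and none fell, when 5.09% of all genes rose and 2.15% fell in LysM-Cre and 4.45% and 1.47% in libraries labelled FosKO. In LysM-Cre they were Socs3, an inhibitor of gp130 signalling (3.51), the IL-10 receptor chain Il10ra (0.84), Ifngr1 (0.12) and Pias1 (0.11), and in libraries labelled FosKO Socs3 (3.02), Il10ra (0.73), Socs1 (0.65) and Ifngr1 (0.13). The rise of Ifngr1 was not called after quantile normalisation in either, nor in several fits that left out 1 library. On quantile-normalised values 2 genes rose and 3 fell at 0.5 h in LysM-Cre, and 3 rose and 1 fell in libraries labelled FosKO. The shares of all genes on those values are not at hand for 0.5 h, so nothing is read from these counts. At 1 h, 16 rose and 5 fell in LysM-Cre (19.2% and 16.5% of all genes) and 13 rose and 4 fell in libraries labelled FosKO (17.6% and 15.0%), with the largest rises in Socs3 (4.55 and 4.36) and Cish (2.69 and 1.78). After quantile normalisation these counts were 10 and 12 (14.7% and 24.5% of all genes), and 8 and 13 (12.7% and 23.2%). The 5 that fell were Socs6 (-0.52), Il6ra, Pias3, Lifr and Il6st, and the 4 were Socs6 (-0.55), Il6ra, Pias3 and Il6st. At 2 h the counts were 24 and 8 in LysM-Cre (30.6% and 30.21% of all genes) and 21 and 9 in libraries labelled FosKO (32.6% and 29.5%), and after quantile normalisation 20 and 16 (24.2% and 36.3%), and 18 and 14 (23.8% and 36.9%). Cish then stood 5.19 and 4.90 above 0 h, Socs3 4.42 and 4.47, and Il6ra, the IL-6 receptor, fell by 0.88 and by 1.08. Il21r fell by 1.03 in LysM-Cre and by 0.61 in libraries labelled FosKO, and Il6st, the gp130 chain, fell by 0.77 in both.

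The change with LPS differed between the genotypes for 10 of the 42 genes at 2 h, 6 upward and 4 downward in libraries labelled FosKO, with 7.27% and 7.70% of all genes, and 6 and 6 after quantile normalisation, with 5.75% and 8.65%. Downward were Il4ra, the IL-4 receptor (-0.46, adjusted p = 1.33e-06), Ifngr2 (-0.42, adjusted p = 8.87e-07), Socs5 (-0.30) and Il6ra (-0.20), and Il21r (0.42) and Socs7 (0.28) led those upward, the call of Il21r being lost after quantile normalisation (0.34, adjusted p = 0.0817) and in most fits that left out 1 library. After quantile normalisation Socs7 was at 0.17 and still called. At 1 h Cish differed (-0.91, adjusted p = 0.00291), which was not called with the high 18S libraries alone, with 1 LysM-Cre library at 1 h (-0.86, adjusted p = 0.056). At 0.5 h none of the 42 was called by limma, and 3 had an unadjusted p under 0.05. After 2 h of LPS Ifngr2 rose by 0.32 in LysM-Cre and fell by 0.11 in libraries labelled FosKO (0.059 and -0.40 after quantile normalisation), and the change of Ifngr1 differed by 0.12, which was not called (adjusted p = 0.1).

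Across the 24 libraries the members fell into patterns that are given as a description, since libraries of one group share their condition. Jak2 and Stat5a ran together (Pearson r = 0.97), as did Ifnar1 and Ifnar2 (0.95), and Stat2 and Tyk2 (0.87), while Ifnar1 and Stat2 had r = -0.02. These pairs were not separate sets, since Jak1 and Jak2 had r = 0.96, Ifnar2 and Stat5a 0.95, and Jak1 and Stat3 0.93. Among 5752 protein-coding genes whose group means spanned at least 0.5, those most like Jak2 were Fscn1 (0.996), Src (0.993) and Pvrl2 (0.992), and those most like Stat5a were Mark2 (0.996), Mtdh (0.996) and Slc44a1 (0.993). Among the genes most like Stat2 were Tor3a (0.97) and Coa5 (0.96), and Tyk2 was most like Rasa4 (0.989), Dbnl and Gpr108. Ifnar1 was most like Sel1l (0.984), Rhou and Ppp2r5d, and Ifnar2 most like Phldb1 (0.978), Rbpj and Itpkb. Jak1 was most like Ptbp3 (0.986), Acbd3 and Cd200, Stat3 most like Vps54 (0.978), Prkx and Mdfic, and Stat6 varied too little to be ranked.

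The order of the group means placed Stat2 highest in unstimulated libraries labelled FosKO (13.26 ± 0.21) and at 2 h there (13.25 ± 0.09), 2 groups that overlapped, and lowest in LysM-Cre at 1 h (11.65 ± 0.08), which no other group reached. Ifnar1 was highest in LysM-Cre at 2 h (12.83 ± 0.004), above all other groups, and its mean at 2 h in libraries labelled FosKO (12.42 ± 0.02) overlapped with LysM-Cre at 1 h (12.41 ± 0.03). Tyk2 means in libraries labelled FosKO occupied the top 4 places, each overlapping the next, and the lowest of them (0 h, 11.29 ± 0.09) overlapped LysM-Cre at 2 h (11.25 ± 0.03). For Stat3 the libraries labelled FosKO at 2 h (12.04 ± 0.04) stood apart from all others, and LysM-Cre at 2 h (11.48 ± 0.04) overlapped with libraries labelled FosKO at 1 h (11.42 ± 0.11). Stat5a ran from LysM-Cre at 2 h (12.09 ± 0.04) down through the other 2 h and 1 h groups without overlap, and its 4 groups at 0 h and 0.5 h overlapped at 9.03 to 9.09.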

How the data were processed

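RNA was measured by strand-specific, single-end RNA-seq (TruSeq, HiSeq) in 24 BMDM libraries. The authors mapped and counted reads with STAR 2.5.2a and RSEM 1.2.31 on mm10 (GRCm38) and used DESeq2 (1.16.1 in the submitters' processing notes). The methods name RefSeq genes, whereas the deposited table carries Ensembl identifiers. The authors deposited log2 normalised values, 1 per gene and library, which resemble a regularised log. Such values pull genes with few reads towards their mean. Depth per library is unknown, so no counting interval was given.

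All 24 columns were used, and 99.58% of identifiers were found in GENCODE vM21. Genes with 2 to the power of the value of at least 5 in at least 3 libraries (13901) entered limma 3.58.1 (R 4.3.3), fitted with 8 group means, an empirical Bayes trend and 16 residual degrees of freedom. In each of 13 comparisons Benjamini-Hochberg adjustment ran over all of these genes. The fit was tested on simulated data. The alternatives were quantile and trimmed mean of M-values (TMM) scaling, other filters, a pseudocount of 1, fits of the compared groups alone, replicate blocks, an 18S term, libraries with high 18S alone, no variance trend and leaving out each library.

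The members and lists were chosen with earlier results of these data known. Named are the 9 members, Fos, genes of the small lists of relatives, and for each comparison the 2 called pathway genes with the largest rise and the 2 with the largest fall. Others named among counts of up to 5 were chosen after their values were seen. The genes most alike were the 3 with the highest Pearson r over the libraries. Some genes that these rules name are not reported here.

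Replicate numbers come from the labels. Libraries of one number had r of deviations over 0.1 in all 3 pairs only for 0.5 h against 0 h in libraries labelled FosKO (0.19, 0.13 and 0.27). For 1 h against 0 h there it was 0.24, 0.08 and 0.15. In LysM-Cre at 1 h and 2 h each library matched its own number at 0 h best, with r of 0.02 to 0.09. Weaker pairing by number was thus not settled.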

Additional observations from a re-analysis of the deposited data

Results flagged for a closer look

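The change with LPS differed between the genotypes, by the interaction term of the limma fit, for 4 members. For Ifnar1 it was smaller in libraries labelled FosKO by a log2 difference of -0.18 (adjusted p = 0.0081) at 1 h and of -0.41 (adjusted p = 7.09e-08) at 2 h. For Ifnar2 at 2 h the difference was -0.17 (adjusted p = 0.0124), and for Stat5a at 2 h it was -0.32 (adjusted p = 0.00832). Stat3 at 2 h was the one that differed upward, by 0.39 (adjusted p = 0.00243).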

How the results depend on the processing

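Of 1251 values of the members under alternatives other than leaving out a library, 1167 kept their direction and their side of the threshold, 29 lost a call and 22 gained one. In 13, all under quantile normalisation, a value that was called before or after changed sign, and another 20 changed sign without being called in either, 15 of these under quantile normalisation (size after the change up to 0.0866) and 5 under other settings (up to 0.0143). Of 864 values without 1 library, 796 kept both, 22 lost a call, 7 gained one and 39, not called in either, changed sign (up to 0.0886). The values, called before or after, that reversed under quantile normalisation were, for FosKO against LysM-Cre, Ifnar1 at 0 h (-0.074), Stat6 at 0, 0.5 and 2 h (-0.0057, -0.010 and -0.060) and Jak1 at 2 h (-0.047). For LPS in LysM-Cre they were Jak1 (-0.043) and Stat6 (-0.081) at 1 h and Stat6 at 2 h (-0.19), and in libraries labelled FosKO Ifnar1 (-0.11), Jak1 (-0.035) and Stat6 (-0.10) at 1 h and Ifnar1 (-0.11) and Stat6 (-0.24) at 2 h. Ifngr2 at 1 h of LPS in LysM-Cre (-0.018) also reversed. The cause was not tested, and this scaling moved the median of all genes by less than 0.1. The count of members called at 2 h for the difference in response went from 4 to 6 under it. In fits without 1 library the count called at 0.5 h of LPS in LysM-Cre ranged from 0 to 1, the 0 arising without LysM-Cre replicate 1 at 0 h or replicate 2 at 0.5 h. Fitting only the compared groups gave 3 called members in place of 6 for 1 h of LPS in libraries labelled FosKO, and 0 in place of 1 for the difference at 1 h, with fewer degrees of freedom; the high 18S libraries alone, with 1 LysM-Cre library at 1 h, also gave 0 for the latter. With them alone the calls of Jak1 and Stat6 were lost for the genotypes at 0.5 h and for 1 h of LPS in LysM-Cre. With the replicate number as a block within each genotype, 1 member in place of 0 was called at 0.5 h in libraries labelled FosKO, and 2 in place of 1 for the difference at 1 h. That block also called Jak2 (-0.37, adjusted p = 0.00427) and Stat2 (-0.36, adjusted p = 0.0161) for the difference at 2 h, and Stat3 at 1 h of LPS in both genotypes (0.13 and 0.15). Apart from 0.5 h in libraries labelled FosKO, pairs of one number had low or uneven r of deviations. In LysM-Cre at 1 h and 2 h each library still matched its own number at 0 h best (r of 0.02 to 0.09). Whether these numbers mark true pairs was not tested. Small genotype differences, under about 0.2, are the least certain here, since Jak1 and Stat3 at 0 h and 1 h lost their calls without single libraries.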
